A study of Mus musculus with 105 samples.

Results

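Sp5, Axin2, Lef1, Nkd1, Notum, Dkk1, Tcf7, Cdx1 and Wnt4 are genes of the canonical Wnt pathway that are widely used to read its activity or that feed back on it. These 9 genes were followed by symbol among 53652 listed symbols in the fusion panel and one RBBP5 set, and by Entrez ID among 27179 listed IDs in the other data sets. The cells were E14TG2a mouse embryonic stem cells, profiled by RNA sequencing in 31 groups of 3 libraries. The study removed SUZ12, a core subunit of the Polycomb repressive complex PRC2 that methylates histone H3 on lysine 27, and asked what several SUZ12 fusions and the loss of RBBP5 do to gene expression.

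The fusion panel held wild-type cells, Suz12 knockout cells, and knockout cells with 6 additions. These were SUZ12 labelled WT (read here as the wild-type protein put back), S12N (a SUZ12 that other labels of the series write as dVEFS), S12N:SUV2, S12N:SD2, and the versions S12N:SUV2* and S12N:SD2*, which the titles call dead. Both RBBP5 sets started from cells whose RBBP5 carries an FKBP tag (R), with a derivative lacking Suz12 (RS), and RS carrying S12N:SUV2 in one set or S12N:SD2 in the other. RBBP5 is a core subunit of the COMPASS-family methyltransferases that act on lysine 4 of histone H3, and the tag lets dTAG13 degrade it. Each line received dTAG13 or DMSO for 24 h, at 500 nM dTAG13 in the SD2 set. A degron line, labelled TCF and carrying SUZ12-mAID with OsTIR, received 50 µM auxin for 2, 4, 8, 24 or 48 h or DMSO for 48 h, where auxin triggers loss of the SUZ12 protein. The HP1 set held wild type, Suz12 knockout, and 3 lines that added to this knockout either full-length SUZ12, S12N, or an S12N fusion carrying the HP1a chromodomain. The panel and both RBBP5 sets were grown in serum with LIF. The labels do not say how many clones each line stands for, so a difference between lines and a difference between genotypes cannot be told apart.

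In the canonical pathway a Wnt ligand binds a Frizzled receptor and an LRP co-receptor, which stops the destruction complex from degrading beta-catenin. Beta-catenin then joins TCF and LEF proteins on DNA and turns on target genes, several of which restrain the pathway in turn. In mouse embryonic stem cells the pathway favours self-renewal, and its developmental targets are held at low levels by PRC2, often on promoters that also carry methylation of histone H3 lysine 4.

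The core of the sequence that TCF and LEF proteins bind is CTTTGA, or TCAAAG on the other strand. Windows from 250 bases before to 50 bases after each annotated start, from RefSeq on GRCm38.p6, were available for 11 starts of 7 of the 9 genes. Each of 3 of these starts held 2 matches, and the 250 bases upstream of them are shown because they held the motif; capitals mark the matches. Of 32851 mouse promoter windows of the same length, 16.0% held at least 1 match on either strand and 1.73% held 2 or more. A match is a description of the letters and not a bound site. The regions were chr2:70474673-70474922 on the plus strand for Sp5, chr3:131156044-131156293 on the plus strand for the most downstream of 4 annotated Lef1 starts, which lies inside the gene, and chr19:30549497-30549746 on the minus strand for Dkk1. The motifs began at -204 and -104 from the start in Sp5, at -180 and -120 in Lef1 and at -174 and -117 in Dkk1.
Sp5: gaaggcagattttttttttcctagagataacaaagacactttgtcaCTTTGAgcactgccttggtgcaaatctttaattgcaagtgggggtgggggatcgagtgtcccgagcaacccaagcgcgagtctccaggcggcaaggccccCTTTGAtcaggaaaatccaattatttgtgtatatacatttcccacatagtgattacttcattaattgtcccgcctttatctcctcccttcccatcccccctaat
Lef1: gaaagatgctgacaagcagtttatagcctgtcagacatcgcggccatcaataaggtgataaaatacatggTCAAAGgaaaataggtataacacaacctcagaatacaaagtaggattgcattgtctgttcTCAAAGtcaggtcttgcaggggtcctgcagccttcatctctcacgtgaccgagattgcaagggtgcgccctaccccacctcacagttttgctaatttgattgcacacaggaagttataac
Dkk1: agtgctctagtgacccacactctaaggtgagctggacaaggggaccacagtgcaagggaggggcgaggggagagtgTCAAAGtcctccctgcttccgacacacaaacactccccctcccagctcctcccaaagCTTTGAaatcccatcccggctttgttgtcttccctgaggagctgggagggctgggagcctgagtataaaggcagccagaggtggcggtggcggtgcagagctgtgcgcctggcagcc
The other 8 windows held no match of these letters. The windows also differed in CpG content, from 51 CpG dinucleotides in Wnt4, 45 at one Tcf7 start and 31 in Axin2 to 9 in Dkk1, 6 in Sp5, 6 in Nkd1 and 5 at the downstream Lef1 start, against a median of 7 over all windows. The other Lef1 windows held 18, 21 and 8, and the other Tcf7 window 17. Starts differ between annotations. The Nkd1 window (chr8:88527383-88527682) lies inside the gene as GENCODE places it, from 88521354 to 88594884. The Dkk1 region shown overlaps the gene as GENCODE places it, with its end at 30549665.

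Libraries held 5476658 to 29965770 counted reads. Suz12 RNA stood at 271 to 319 CPM (counts-per-million) in wild type and 45.5 to 66.6 CPM in the knockout of the panel, and was likewise lower in RS than in R and in the knockout of the HP1 set. Auxin and dTAG13 act on protein, so RNA gave no check of those treatments. The 24 h auxin libraries differed among themselves, and replicate 3 of R with dTAG13 in the SD2 set stood apart with Suz12 at 241 CPM against 316 and 324 CPM. A list of 10 pluripotency markers summed to 6800 to 7060 CPM in wild type and 7160 to 7560 CPM in the knockout of the panel, and spread from 7440 to 17900 CPM over the 24 h auxin libraries. Markers of primitive endoderm, an extraembryonic cell type that embryonic stem cells can form, summed to 217 to 263 CPM in wild type and 618 to 1060 CPM in the knockout, and all 12 rose, where 23.8% of all genes tested did. Markers of primitive streak and mesendoderm summed to 9.05 to 10.6 CPM and 30.1 to 43.5 CPM, and a list of 9 feeder fibroblast markers to 4.48 to 4.8 CPM and 29.7 to 40.7 CPM, in the same groups, where Lum was at 0 in wild type. Markers of neural progenitors went the other way in the panel, from 70.5 to 109 CPM in wild type to 36.9 to 38.7 CPM in the knockout. They held 67.3 to 98.5 CPM with SUZ12 put back. Trophoblast markers overlapped between wild type and knockout, at 78.2 to 87.3 CPM and 76.7 to 103 CPM. Feeder markers of the degron line summed to 1.99 to 2.5 CPM in DMSO and 21.7 to 26.8 CPM at 48 h. Neural progenitor markers of that line summed to 25.3 to 37.0 CPM in DMSO and 71.9 to 77.4 CPM at 48 h. The part of these cell types in the results was not tested. In such bulk samples, more cells of a type and more RNA per cell cannot be told apart. CPM values below use TMM-scaled library totals, log2 fold changes carry standard errors (SE), and adjusted p-values come from edgeR's quasi-likelihood test with Benjamini-Hochberg adjustment over all genes tested. A gene was called changed where its adjusted p was under 0.05, n was 3 libraries per group, and levels were not compared between data sets.

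Loss of SUZ12 raised most of the 9 genes and left Tcf7 nearly level. Sp5 fell in 3 of 5 data sets, rose at 48 h of auxin (log2 4.13) and was not called in the HP1 knockout. In the panel knockout 7 genes rose, where 23.8% of all genes tested rose, and 1 fell, where 23.2% fell. The median log2 fold change of the 9 was 1.13, against -0.02 over all genes. In RS against R, 6 rose and 2 fell in the SUV2 set, where 36.9% and 34.9% of all genes did, and 6 rose and 1 fell in the SD2 set, where 31.8% and 27.2% did. The HP1 knockout raised 7 and lowered 0, against 22.2% and 19.6%; with replicates 1 and 2 alone, whose library headers differ from those of replicate 3, Axin2 and Nkd1 missed the threshold (adjusted p = 0.0651 and 0.0819). After 48 h of auxin 7 of the 8 genes tested rose and 0 fell, against 20.2% and 23.8%, with a median of 2.43 against 0.00. Dkk1, Axin2 and Cdx1 rose in all 5 of these data sets, and Wnt4 in all 4 that could test it. Lef1 and Nkd1 rose in 4 of 5, missing the threshold in the HP1 set and the SUV2 set respectively, and Notum rose in 4 of 5, missing it in the SD2 set.

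Putting SUZ12 back lowered 6 of the 7 genes that rose in the panel knockout, but 3 of the 7 that rose in the HP1 knockout (Axin2, Notum and Tcf7). In the panel, 6 genes fell and 2 rose against the knockout, where 24.2% and 24.4% of all genes did. Of the 2 that rose, Sp5 moved toward its wild-type level and Wnt4 moved further from it. Against wild type, the cells with SUZ12 put back had 1 gene higher and 1 lower, against 5.67% and 4.73%. The library headers of panel wild type and knockout differ from those of the other panel groups. These 2 groups held 8798746 to 10694352 counted reads per library, against 17040301 to 29965770 in the others. A library run and an added SUZ12 form therefore cannot be told apart where wild type or knockout is compared with those others. The comparison of SUZ12 put back with the knockout also shares the knockout libraries with that of knockout and wild type. With the S12N cells, whose headers are like those of SUZ12 put back, in place of the knockout, 5 genes fell and 2 rose. S12N against the knockout had 0 calls in the panel, where 3.81% of all genes were called; 4 genes had an unadjusted p under 0.05, and DESeq2 called 0. Full-length SUZ12 of the HP1 set lowered 4 genes and raised 1 against the knockout, where 14.1% and 12.3% of all genes moved, and differed from wild type by 3 higher and 1 lower, against 11% and 8.13%. S12N against the knockout again had 0 calls there, against 1.89%, with 0 genes at an unadjusted p under 0.05 and 0 calls by DESeq2.

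**Figure D1:**
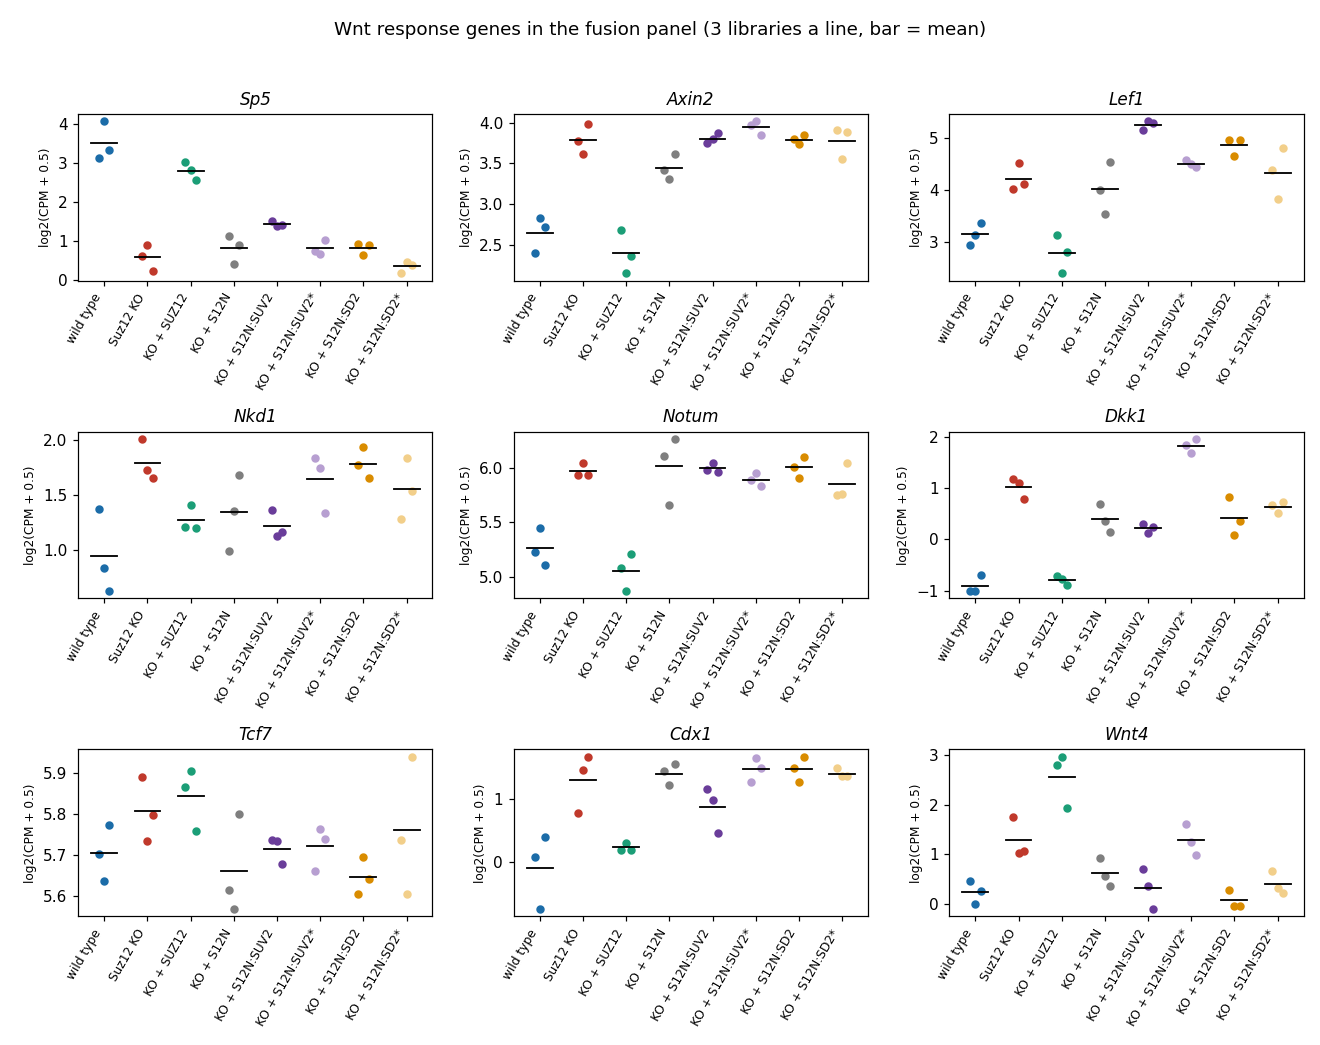
Levels of the 9 genes in the 8 groups of the fusion panel, as log2(CPM + 0.5) per library (points, 3 per group) with the group mean (bar). Sp5 is lower in the knockout than in wild type and Wnt4 is highest in the knockout with SUZ12 put back, while Axin2, Lef1, Notum, Dkk1 and Cdx1 are higher in the knockout and lower again with SUZ12.

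**Figure D2:**
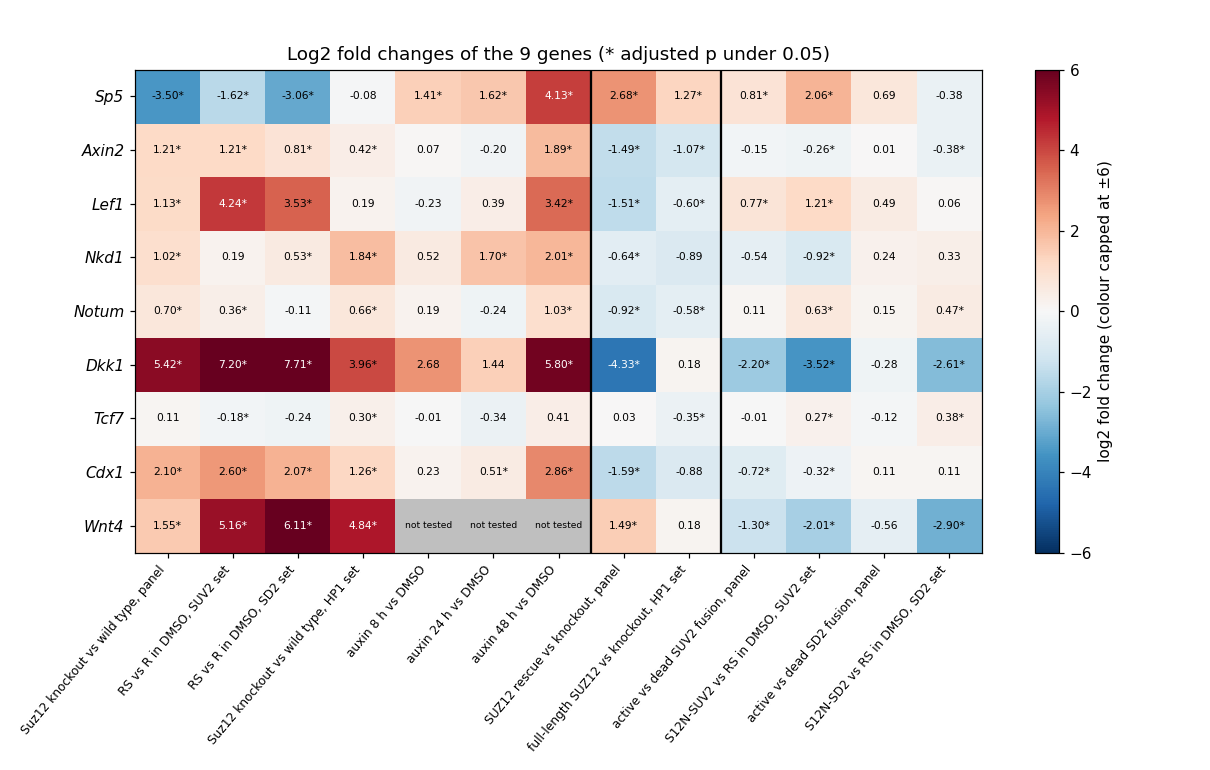
Log2 fold changes of the 9 genes in 13 comparisons (colour, limited to 6 in either direction), with stars at adjusted p under 0.05 and grey where a gene was not tested. Sp5 is lower in the first comparisons of SUZ12 loss (-3.50 in the panel) and higher after 48 h of auxin (4.13).

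The fusions with an added domain gave a mixed picture. The active SUV2 fusion, against its dead version, had 2 genes higher and 3 lower, where 9.82% and 12.8% of all genes were. In the SUV2 RBBP5 set, RS with S12N:SUV2 differed from RS in all 9 genes, 4 higher and 5 lower, against 23.3% and 25.4%. The active SD2 fusion, against its dead version, had 0 calls in the panel, where 18% of all genes were called; 2 genes, Sp5 and Lef1, had an unadjusted p under 0.05 and DESeq2 called 0. RS with S12N:SD2 against RS had 2 genes higher and 3 lower, against 13% and 14.9%. Neither RBBP5 set held a dead version of its fusion or a line with S12N alone. The HP1a chromodomain fusion differed from S12N in 1 gene, Notum, against 6.97% of all genes.

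Degrading RBBP5 raised Lef1 and lowered Axin2 and Tcf7 in every line. Between 4 and 8 of the 9 genes were called, and large shares of all genes were called in the same comparisons. In the SUV2 set, dTAG13 raised 3 and lowered 2 of the 9 in R, against 25.4% and 26.2% of all genes, raised 2 and lowered 2 in RS, against 23.2% and 25.1%, and raised 1 and lowered 3 in RS with S12N:SUV2, against 25.9% and 27%. In the SD2 set it raised 4 and lowered 4 in R, against 21.6% and 20.2%, raised 1 and lowered 3 in RS, against 15.9% and 22.3%, and raised 2 and lowered 3 in RS with S12N:SD2, against 18.5% and 22.9%. The difference of the dTAG13 effect between RS and R was called for 0 of 9 genes in the SUV2 set, where 19.6% of all genes were called; 4 had an unadjusted p under 0.05 and DESeq2 called 0. In the SD2 set that difference was called for 3 genes, against 12.1%. Without replicate 3 of R with dTAG13, which stood apart, the 8 calls in R and these 3 calls were kept, with Sp5 in R at log2 0.24 (adjusted p = 0.0167) in place of 0.36. Between RS with S12N:SUV2 and RS it was called for 2 genes, against 10.7%, and between RS with S12N:SD2 and RS for 0, against 2.06%, where 1 gene (Lef1) had an unadjusted p under 0.05 and DESeq2 called that 1 gene.

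The auxin series placed these changes in time. At 2 h 0 of 8 genes were called, where 0% of all genes were, with 0 genes at an unadjusted p under 0.05. At 4 h 0 of 8 were called, against 0.00713%, with 1 gene (Sp5) at an unadjusted p under 0.05. At 8 h the 1 gene called was Sp5, against 0.0357% of all genes, and at 24 h 3 rose and 0 fell, against 16.4% and 17.9%. DESeq2 also called 0 of these genes at 2 h and at 4 h. The library headers number the DMSO and 2 to 8 h libraries together and the 24 and 48 h libraries apart from them. A library run and the later times therefore cannot be told apart, and 48 h was also compared with 24 h. In that comparison Notum was higher by log2 1.26 ± 0.17, Lef1 by 3.03 ± 0.77, Dkk1 by 4.37 ± 0.79 and Cdx1 by 2.35 ± 0.17, all called. The values for Axin2, Nkd1, Tcf7 and Sp5 are given with each gene.

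Wnt4 encodes a secreted Wnt ligand with roles in kidney and gonad development (chr4:137277489-137299726, plus strand, GRCm38). It stood at 0.883, 0.498 and 0.703 CPM in wild type, 2.88, 1.55 and 1.61 CPM in the knockout, and 6.47, 7.28 and 3.33 CPM with SUZ12 put back. The 3 groups did not overlap, and the cells with SUZ12 put back were the highest of the panel. The rise in the knockout was 2.93-fold (log2 1.55 ± 0.48 SE, adjusted p = 0.00976), and the wild-type total of 19 reads gives a counting interval of 0.80 to 2.38 for the log2 ratio. The rescue stood 2.81-fold above the knockout (log2 1.49 ± 0.31, adjusted p = 0.000298) and 8.25-fold above wild type (log2 3.04 ± 0.40, adjusted p = 7.16e-06). Without wild-type replicate 2 or knockout replicate 1 the rise in the knockout missed the threshold (log2 1.35, adjusted p = 0.0509, and log2 1.2, adjusted p = 0.0733), and without rescue replicate 3 or any other single library the rescue stayed above the knockout. Wild type of the HP1 set held 0, 0.291 and 0 CPM, the knockout 3.51, 2.28 and 3.05 CPM and full-length SUZ12 3.47, 3.58 and 2.59 CPM. There too full-length SUZ12 overlapped the knockout (log2 0.18 ± 0.39, adjusted p = 0.784) and lay above wild type (log2 5.02 ± 0.67, adjusted p = 1.7e-07, counting interval 3.48 to 7.35).

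Wnt4 rose in RS in both RBBP5 sets and was lower where RS also carried a fusion. It held 0.0499, 0.155 and 0.054 CPM in R and 2.89, 3.47 and 2.86 CPM in RS of the SUV2 set (log2 5.16 ± 0.39, adjusted p = 2.97e-13, counting interval 3.92 to 6.80). RS with S12N:SUV2 held 0.75, 0.367 and 1.14 CPM, 4.03-fold below RS (log2 -2.01 ± 0.24, adjusted p = 2.99e-08). In the SD2 set RS held 4.42, 4.44 and 4.31 CPM, against 0, 0.121 and 0.0675 CPM in R (log2 6.11 ± 0.52, counting interval 4.55 to 8.40), and RS with S12N:SD2 held 0.399, 0.338 and 1.08 CPM, 7.45-fold below RS (log2 -2.90 ± 0.32, adjusted p = 2.25e-06). In the panel the active SUV2 fusion lay 2.46-fold below its dead version (log2 -1.30 ± 0.34, adjusted p = 0.00576), at 1.14, 0.793 and 0.436 CPM against 2.57, 1.89 and 1.48 CPM. That dead version, with a mean of 1.98 CPM, overlapped the knockout and lay above S12N (mean 1.06 CPM) without overlap. The active fusion, with a mean of 0.79 CPM, overlapped S12N. The active and dead SD2 fusions overlapped (log2 -0.56 ± 0.43, adjusted p = 0.393). No dTAG13 comparison was called, except in R of the SUV2 set without DMSO replicate 2, which held 3 of the 5 reads of its group (adjusted p = 0.0477). In the degron line Wnt4 gave between 0 and 6 reads over the 3 libraries of a group and was not tested.

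Dkk1, a secreted inhibitor that binds the LRP co-receptors, had the largest rises of the 9 genes on loss of SUZ12 in 4 of 5 data sets, all but the HP1 set (chr19:30545863-30549665, minus strand). Wild-type cells of the panel held 1 read in all (0, 0 and 0.117 CPM), against 1.77, 1.65 and 1.23 CPM in the knockout. The log2 difference was 5.42 ± 0.71 (adjusted p = 7.5e-07), but the counting interval ran from 2.87 to 10.75. With SUZ12 put back the level was 0.107, 0.0867 and 0.0428 CPM, 20.2-fold below the knockout (adjusted p = 3.57e-08, 5 reads, log2 counting interval -6.02 to -3.01). RS held 14.5, 11.4 and 12.1 CPM in the SUV2 set and 26.7, 26.0 and 26.8 CPM in the SD2 set. R held at most 0.162 and 0.203 CPM in the same sets, so the log2 differences were 7.20 ± 0.26 (counting interval 5.97 to 8.82, adjusted p = 1.34e-21) and 7.71 ± 0.19 (6.58 to 9.16, adjusted p = 1.43e-15). The HP1 knockout held 1.55, 0.85 and 0.718 CPM, against 0.15, 0 and 0 CPM in wild type (log2 3.96 ± 1.01, adjusted p = 0.00136, counting interval 1.91 to 6.99). Full-length SUZ12 in that set overlapped the knockout at 0.324, 1.87 and 1.55 CPM.

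Both fusions lowered Dkk1 in RS, and only the SUV2 fusion was called against its dead version. S12N:SUV2 took it to 0.857, 1.15 and 1.29 CPM, 11.4-fold below RS (log2 -3.52 ± 0.16, adjusted p = 2.92e-18), and S12N:SD2 to 4.5, 3.94 and 4.58 CPM, 6.12-fold below RS (log2 -2.61 ± 0.10, adjusted p = 2.67e-12). In the panel the active SUV2 fusion held 0.734, 0.586 and 0.678 CPM and its dead version 3.06, 2.72 and 3.36 CPM (log2 -2.20 ± 0.25, adjusted p = 3.16e-07). That dead version was the highest group of the panel, with a mean of 3.04 CPM above the knockout at 1.55 CPM without overlap. The active fusion overlapped S12N (means 0.666 and 0.833 CPM). The active and dead SD2 fusions overlapped (log2 -0.28 ± 0.28, adjusted p = 0.53). The difference between those fusion effects was not tested. Under auxin, Dkk1 gave 2 reads over the DMSO libraries and stayed at or below 10 reads at 2 and 4 h. At 48 h it reached 1.49, 2.06 and 3.09 CPM (log2 5.80 ± 0.82, adjusted p = 3.16e-05, counting interval 3.89 to 8.87), and the 24 h libraries held 3 reads in all. dTAG13 raised Dkk1 5.23-fold in R of the SD2 set, from 0.125, 0.0607 and 0.203 CPM to 0.52, 0.793 and 0.702 CPM (adjusted p = 0.000237, log2 counting interval 1.07 to 3.96), and less in RS with S12N:SD2 (log2 0.40 ± 0.12, adjusted p = 0.0108). The latter call was lost without DMSO replicate 2 or dTAG13 replicate 1 of that line (adjusted p = 0.0572 and 0.0664). The genes whose group means followed Dkk1 most closely, among 11497 genes and over 31 group means centred within each data set, were Pdgfra (r = 0.975), Runx1 (0.958) and Lrpap1 (0.957); Pdgfra is one of the primitive endoderm markers. Those markers moved with Dkk1 in several comparisons. In RS of the SUV2 set 11 of 12 rose, where 36.9% of all genes did, and in RS of the SD2 set 12 of 12 (31.8% of all genes). In the HP1 knockout 11 of 12 rose (22.2%), and at 48 h of auxin 5 of 10 measured (20.2%). All 12 of 12 fell with S12N:SUV2 in RS (25.4% of all genes), with S12N:SD2 in RS (14.9%) and with SUZ12 put back in the panel (24.2%), where Wnt4 rose. Their summed level was 889 to 1010 CPM in RS against 156 to 177 CPM in R of the SUV2 set, and 3800 to 4030 against 204 to 221 CPM in the SD2 set. In R of the SD2 set with dTAG13, where Dkk1 rose 5.23-fold, it was 227 to 379 CPM. With full-length SUZ12 of the HP1 set it was 573 to 627 CPM, against 777 to 798 CPM in the knockout, while Dkk1 was not lower (means 1.25 and 1.04 CPM). The part of these markers in the results for Dkk1 and Wnt4 was not tested.

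Notum encodes a secreted enzyme that removes the lipid of Wnt ligands (chr11:120653788-120661175, minus strand). Its changes were small beside those of Dkk1. In the panel it stood at 37.0, 43.2 and 34.0 CPM in wild type, 60.5, 65.5 and 60.5 CPM in the knockout and 33.3, 28.8 and 36.6 CPM with SUZ12 put back. The knockout lay above both without overlap, by 1.63-fold over wild type (log2 0.70 ± 0.12, adjusted p = 4.21e-05) and 1.89-fold over the rescue (adjusted p = 4.85e-07). The HP1 set gave 67.5, 71.5 and 60.9 CPM in wild type, 100, 114 and 101 CPM in the knockout and 72.1, 79.7 and 60.1 CPM with full-length SUZ12 (knockout against wild type log2 0.66 ± 0.08, adjusted p = 2.85e-09). The HP1a chromodomain fusion raised it to 129, 120 and 123 CPM, from 103, 102 and 102 CPM with S12N (log2 0.28 ± 0.07, adjusted p = 0.0135), and the call was lost without replicate 1 of S12N or of the fusion (adjusted p = 0.0522 and 0.0923). Auxin changed it at 48 h, from 15.9, 15.8 and 13.6 CPM to 28.0, 28.7 and 35.3 CPM (2.04-fold, adjusted p = 0.000132).

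The response of Notum to dTAG13 differed in its calls between the RBBP5 sets. In the SD2 set it fell in each of 3 lines, from 44.2, 49.9 and 48.1 CPM to 28.2, 27.7 and 35.6 CPM in R (log2 -0.64 ± 0.08), with log2 -0.69 ± 0.08 in RS and -0.69 ± 0.08 in RS with S12N:SD2. In the SUV2 set R held 15.8, 16.6 and 15.5 CPM in DMSO and 16.7, 16.7 and 16.1 CPM with dTAG13, and no line was called (log2 0.04, -0.09 and 0.07, each ± 0.05 to 0.07). Without DMSO replicate 1, the RS comparison of the SUV2 set was called at log2 -0.15 (adjusted p = 0.0496). The sets were processed with different tools and kits, and the difference between them was not tested. RS and R also differed by set, with log2 0.36 ± 0.06 (adjusted p = 1.27e-05) in the SUV2 set and -0.11 ± 0.08 (adjusted p = 0.245) in the SD2 set, while both fusions lay above RS (1.54-fold for S12N:SUV2 and 1.38-fold for S12N:SD2).

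Axin2, a scaffold of the destruction complex and the most used readout of canonical Wnt activity, rose on SUZ12 loss and fell when RBBP5 was degraded (chr11:108920349-108950783, plus strand). In the panel it went from 4.75, 6.57 and 6.09 CPM in wild type to 13.2, 11.7 and 15.3 CPM in the knockout (2.31-fold, log2 1.21 ± 0.16, adjusted p = 8.86e-07), and was 5.88, 3.94 and 4.62 CPM with SUZ12 put back (2.81-fold below the knockout). RS exceeded R by 2.31-fold in the SUV2 set, at 17.5, 16.9 and 19.3 against 7.98, 8.2 and 7.02 CPM, and by 1.75-fold in the SD2 set, at 27.5, 24.6 and 22 against 16.3, 13.4 and 12.5 CPM. The panel knockout overlapped neither wild type nor the rescue, and RS did not overlap R in either set. The HP1 set gave a smaller rise (log2 0.42 ± 0.17, adjusted p = 0.0399) that was lost without wild-type replicate 2 or 3 or knockout replicate 1 or 3 (log2 0.32 to 0.43, adjusted p = 0.0591 to 0.182). Full-length SUZ12 took it to 9.98, 6.91 and 7.64 CPM there, below both the knockout (log2 -1.07 ± 0.17) and wild type (log2 -0.65 ± 0.17, adjusted p = 0.00539, lost without wild-type replicate 1 or full-length replicate 2 at adjusted p = 0.0556 and 0.0507).

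dTAG13 lowered Axin2 in each of the 6 lines. The log2 differences were -0.55 ± 0.10 in R, -0.27 ± 0.07 in RS and -0.52 ± 0.08 in RS with S12N:SUV2 of the SUV2 set, and -1.03 ± 0.15, -0.68 ± 0.12 and -0.83 ± 0.13 in R, RS and RS with S12N:SD2 of the SD2 set. In R of the SD2 set the level went to 8.19, 6.92 and 5.21 CPM, below every DMSO library. The dTAG13 effects did not differ between lines of a set at the threshold (adjusted p = 0.115 to 0.774). The fusions in RS lowered Axin2 slightly, by log2 -0.26 ± 0.07 for S12N:SUV2 (adjusted p = 0.00233) and -0.38 ± 0.12 for S12N:SD2 (adjusted p = 0.0257). The latter was lost without RS replicate 1 or 2 or fusion replicate 2 or 3 (log2 -0.30 to -0.38, adjusted p = 0.0591 to 0.133). In the degron line Axin2 stood at 21.9, 17.6 and 15 CPM in DMSO, overlapped it at 2, 4 and 8 h, and held 67.8, 64 and 70.3 CPM at 48 h (3.72-fold, log2 1.89 ± 0.26, adjusted p = 2.55e-05). The 24 h libraries held 12.2, 7.98 and 25.8 CPM, and without replicate 3 that time point was called lower than DMSO (log2 -0.83, adjusted p = 0.000269). Against 24 h, the 48 h level was higher by log2 2.09 ± 0.27.

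Nkd1 encodes a cytoplasmic protein that binds Dishevelled and dampens the signal (chr8:88521354-88594884, plus strand), and it was low in all groups. The panel gave 2.1, 1.29 and 1.05 CPM in wild type and 3.53, 2.81 and 2.65 CPM in the knockout (2.02-fold, log2 1.02 ± 0.30, adjusted p = 0.00659). With SUZ12 put back it was 1.82, 2.17 and 1.8 CPM, a fall (log2 -0.64 ± 0.25, adjusted p = 0.0357) lost without rescue replicate 1 or 3 or knockout replicate 1 or 2 (log2 -0.50 to -0.68, adjusted p = 0.0548 to 0.163). The fall was also lost with S12N in place of the knockout (log2 -0.11 ± 0.23, adjusted p = 0.721). The HP1 knockout held 2.53, 1.91 and 3.59 CPM, against 0.674, 1.07 and 0.318 CPM in wild type (log2 1.84 ± 0.56, adjusted p = 0.00713). In the degron line Nkd1 was among the 3 genes that rose at 24 h, from 0.963, 1.0 and 1.82 CPM in DMSO to 3.2, 1.95 and 6.5 CPM (3.25-fold, log2 1.70 ± 0.39, adjusted p = 0.00388; log2 1.05, adjusted p = 0.0269, without 24 h replicate 3), and 4.46, 4.78 and 5.99 CPM at 48 h did not differ from 24 h at the threshold (log2 0.31 ± 0.36, adjusted p = 0.517). dTAG13 raised Nkd1 in R and in neither Suz12-knockout line of a set. In R of the SD2 set it went from 2.93, 2.61 and 2.36 to 5.85, 5.04 and 5.92 CPM (2.12-fold, adjusted p = 2.85e-05), and the effect in RS was smaller by log2 0.95 (difference -0.95 ± 0.21, adjusted p = 0.007). In R of the SUV2 set the rise was log2 0.46 ± 0.15 (adjusted p = 0.00942, lost without dTAG13 replicate 2 at log2 0.35, adjusted p = 0.0767), and its difference from RS missed the threshold (log2 -0.50 ± 0.21, adjusted p = 0.0884). S12N:SUV2 lowered Nkd1 in RS by 1.89-fold (adjusted p = 3e-05). In the panel the active against the dead SUV2 fusion was called without replicate 3 of the dead version (log2 -0.70, adjusted p = 0.0393), and in the SD2 set S12N:SD2 against RS was called without fusion replicate 3 (log2 0.45, adjusted p = 0.0296).

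**Figure D3:**
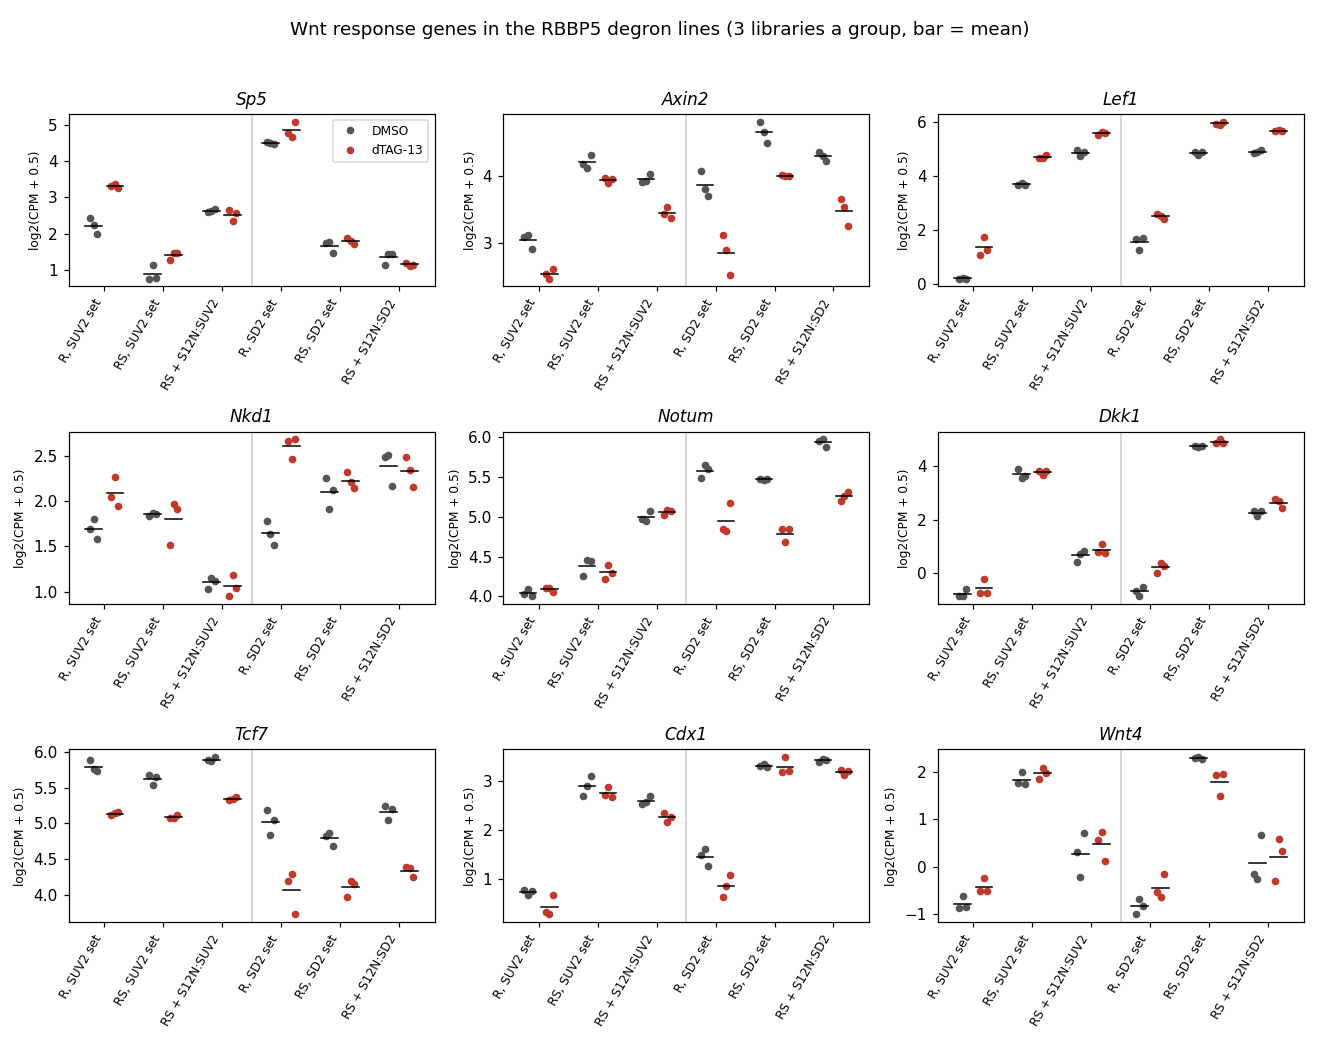
Levels of the 9 genes in both RBBP5 sets, as log2(CPM + 0.5) per library (points) with the group mean (bar), for R, RS and RS with a fusion in DMSO and dTAG13. Lef1 is higher and Axin2 and Tcf7 lower with dTAG13 in each line, and Dkk1 and Wnt4 are high in RS and lower with either fusion.

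Lef1 encodes one of the factors that carry beta-catenin on DNA, and it is itself a Wnt target (chr3:131110471-131224356, plus strand). It rose from 7.17, 8.27 and 9.72 CPM in wild type to 15.8, 22.3 and 16.9 CPM in the panel knockout (2.19-fold, log2 1.13 ± 0.26, adjusted p = 0.000974), and was 8.23, 4.77 and 6.46 CPM with SUZ12 put back (2.85-fold below the knockout). In R it was low, at 0.648, 0.671 and 0.648 CPM in the SUV2 set and 2.68, 1.88 and 2.77 CPM in the SD2 set. RS held 12.2, 12.7 and 12.1 CPM (18.9-fold above R, log2 4.24 ± 0.17, adjusted p = 1.41e-20) and 28.8, 26.5 and 28.7 CPM (11.5-fold, log2 3.53 ± 0.10). Both sets therefore had RS far above R, with no overlap. In the HP1 set the knockout, at 7.31, 7.65 and 5.74 CPM, overlapped wild type at 6.74, 5.72 and 6.04 CPM (log2 0.19 ± 0.21, adjusted p = 0.513). Full-length SUZ12 lay lower there (log2 -0.60 ± 0.21, adjusted p = 0.0341), a call lost without knockout replicate 1 or 2 or full-length replicate 1 or 2 (log2 -0.49 to -0.61, adjusted p = 0.0775 to 0.181).

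The SUV2 fusion and dTAG13 each raised Lef1 beyond the level of RS. RS with S12N:SUV2 held 30.7, 25.8 and 29.1 CPM, 2.31-fold above RS (adjusted p = 5.69e-15), and the active SUV2 fusion of the panel held 35.2, 39.6 and 38.5 CPM against 23.5, 22.1 and 21.1 CPM for its dead version (log2 0.77 ± 0.19, adjusted p = 0.0046). RS with S12N:SD2 overlapped RS, and the active SD2 fusion did not pass against its dead version (log2 0.49 ± 0.20, adjusted p = 0.0846) except with no filter on low counts (log2 0.51, adjusted p = 4.61e-05), with a replicate block (log2 0.51, adjusted p = 0.0476) or without replicate 3 of the dead version (log2 0.77, adjusted p = 0.0107). dTAG13 raised Lef1 in each of the 6 lines, by 3.19-fold in R, 2.08-fold in RS and 1.65-fold in RS with S12N:SUV2, and by 2.14-fold, 2.18-fold and 1.73-fold in R, RS and RS with S12N:SD2. RS of the SD2 set went to 60.0, 59.1 and 64 CPM, the highest Lef1 level of that set. The rise was smaller in RS with S12N:SUV2 than in RS (log2 difference -0.33 ± 0.09, adjusted p = 0.0195), which was lost without DMSO replicate 1 of either line or dTAG13 replicate 3 of RS (adjusted p = 0.0504 to 0.0605). In the degron line Lef1 gave 7 reads over the DMSO libraries, and at 48 h it stood at 2.28, 1.31 and 0.843 CPM (log2 3.42 ± 0.69, adjusted p = 0.000856, counting interval 2.28 to 4.82). Ankrd33b (r = 0.941), Bin1 (0.919) and Kmt2c (0.916) had the group means most like those of Lef1.

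Tcf7 encodes TCF1, another partner of beta-catenin (chr11:52252371-52283014, minus strand). It changed little with SUZ12. The panel gave 51.6, 49.3 and 54.2 CPM in wild type, 58.8, 52.7 and 55.1 CPM in the knockout and 57.8, 59.4 and 53.6 CPM with SUZ12 put back, all overlapping (knockout against wild type log2 0.11 ± 0.08, adjusted p = 0.309). RS lay slightly below R in the SUV2 set (log2 -0.18 ± 0.04, adjusted p = 0.000383), and in the SD2 set the difference of -0.24 ± 0.11 missed the threshold (adjusted p = 0.0777) except without R replicate 2 (log2 -0.34, adjusted p = 0.0268). The HP1 knockout lay above wild type (log2 0.30 ± 0.10, adjusted p = 0.0111), and full-length SUZ12 below the knockout (log2 -0.35 ± 0.10), both calls lost without knockout replicate 2 (log2 0.20, adjusted p = 0.178, and log2 -0.24, adjusted p = 0.12). At 48 h of auxin Tcf7 held 61.3, 67.9 and 62.2 CPM, above the DMSO libraries at 54.3, 48.6 and 41.6 CPM (log2 0.41 ± 0.19, adjusted p = 0.0948). The 24 h libraries held 35.6, 23.9 and 53.2 CPM, and without replicate 3 that time was called lower than DMSO (log2 -0.68, adjusted p = 0.000211). Against all 24 h libraries, Tcf7 at 48 h was called higher (log2 0.75 ± 0.19, adjusted p = 0.00703).

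RBBP5 degradation gave the clear change in Tcf7. In R of the SUV2 set it fell from 58.8, 54 and 52.9 CPM to 34.1, 35.0 and 35.1 CPM (1.59-fold, log2 -0.67 ± 0.04, adjusted p = 8.17e-14), by 1.45-fold in RS and by 1.47-fold in RS with S12N:SUV2. In R, RS and RS with S12N:SD2 of the SD2 set it fell by 1.93-fold, 1.62-fold and 1.8-fold, and in R from 36.1, 28.0 and 32.5 CPM to 17.7, 19.1 and 12.7 CPM. The effects did not differ between lines of a set at the threshold (adjusted p = 0.163 to 0.925). Tcf7 was higher with the fusions than in RS, by log2 0.27 ± 0.04 with S12N:SUV2 and 0.38 ± 0.11 with S12N:SD2 (adjusted p = 0.0176, lost without RS replicate 3 or fusion replicate 1 at adjusted p = 0.0824 and 0.0733).

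Sp5 encodes a zinc-finger factor of the Sp family that is induced by beta-catenin and acts on other Wnt targets (chr2:70474923-70477729, plus strand). In the panel it stood at 8.17, 16.3 and 9.6 CPM in wild type and 1.02, 1.36 and 0.662 CPM in the knockout. The groups were far apart, 11.3-fold lower in the knockout (log2 -3.50 ± 0.29, adjusted p = 3.83e-10). With SUZ12 put back Sp5 stood at 7.64, 6.5 and 5.39 CPM, 6.41-fold above the knockout (log2 2.68 ± 0.30, adjusted p = 4.37e-08) and 1.76-fold below wild type (log2 -0.82 ± 0.21, adjusted p = 0.0108, lost without rescue replicate 3 or wild-type replicate 2 at adjusted p = 0.0546 and 0.209). In order of mean level, the active SUV2 fusion came next at 2.36, 2.1 and 2.13 CPM, above S12N without overlap, and the remaining 5 groups overlapped one another in turn between 0.628 and 1.67 CPM. The active against the dead SUV2 fusion was called (log2 0.81 ± 0.26, adjusted p = 0.0252) but lost in 5 of 6 fits that left out 1 library, those without dead replicate 1 or 2 or active replicate 1, 2 or 3 (log2 0.72 to 0.85, adjusted p = 0.0514 to 0.103).

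RS lay below R for Sp5 in both RBBP5 sets. The SUV2 set gave 4.89, 4.23 and 3.46 CPM in R and 1.19, 1.67 and 1.2 CPM in RS (3.08-fold lower, adjusted p = 2.33e-10), and the SD2 set 22.6, 22 and 21.7 CPM and 2.81, 2.92 and 2.24 CPM (8.34-fold lower, adjusted p = 1.07e-12). S12N:SUV2 in RS held 5.52, 5.71 and 5.87 CPM, 4.18-fold above RS (log2 2.06 ± 0.15, adjusted p = 1.01e-12) and above all DMSO libraries of R. S12N:SD2 held 1.71, 2.2 and 2.22 CPM, below all RS libraries but not called (log2 -0.38 ± 0.17, adjusted p = 0.116). dTAG13 raised Sp5 2.25-fold in R and 1.58-fold in RS of the SUV2 set (adjusted p = 2.25e-10 and 0.00458), and 1.28-fold in R of the SD2 set (adjusted p = 0.00621). In RS with S12N:SUV2 the levels of 5.73, 4.63 and 5.45 CPM overlapped DMSO, and the effect was smaller there than in RS (log2 difference -0.77 ± 0.22, adjusted p = 0.0206). That difference was lost without DMSO replicate 1 or 3 or dTAG13 replicate 2 or 3 of RS (log2 -0.68 to -0.75, adjusted p = 0.0506 to 0.0779).

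In the degron line Sp5 went the other way, and it was the earliest of the genes to be called. DMSO libraries held 1.8, 1.61 and 1.76 CPM and 2 h libraries 1.83, 1.47 and 1.36 CPM. At 4 h the level was 3.52, 2.84 and 2.82 CPM, above all DMSO libraries but not called (log2 0.83 ± 0.21, adjusted p = 1.0). At 8 h it was 4.88, 4.11 and 4.76 CPM, 2.67-fold above DMSO (log2 1.41 ± 0.21, adjusted p = 0.0225), and Sp5 was 1 of 5 genes called among 14016. The 8 h call was lost without DMSO replicate 1, 2 or 3 or 8 h replicate 1 or 3 (log2 1.36 to 1.44, adjusted p = 0.0861 to 0.167). At 24 h Sp5 held 3.44, 6.84 and 5.66 CPM (3.07-fold, adjusted p = 0.000109) and at 48 h 30.9, 28.3 and 31 CPM (17.5-fold, log2 4.13 ± 0.20, adjusted p = 1.2e-09), with log2 2.51 ± 0.19 above 24 h. In the HP1 set the knockout libraries spread widely, at 0.703, 2.18 and 4.48 CPM, and overlapped wild type at 3.75, 1.36 and 2.07 CPM (log2 -0.08 ± 0.42, adjusted p = 0.902). Full-length SUZ12 held 6.47, 5.78 and 4.4 CPM, higher than both the knockout (log2 1.27 ± 0.38, adjusted p = 0.0102) and wild type (log2 1.19 ± 0.37, adjusted p = 0.0188). The first was lost without knockout replicate 1 or 2 or full-length replicate 1 (adjusted p = 0.0574 to 0.0916), and the second without wild-type replicate 2 or 3 or full-length replicate 1 (adjusted p = 0.0571 to 0.138). The opposite direction in the degron line and the knockouts was not tested; the data sets were normalized separately. The genes most like Sp5 over the group means were Cisd2 (r = 0.886), Maml1 (0.885) and Zcchc14 (0.880).

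Cdx1 encodes a caudal homeobox factor of posterior patterning and a direct Wnt target (chr18:61018862-61036199, minus strand). It rose in the panel knockout from 0.552, 0.0996 and 0.82 CPM to 1.21, 2.23 and 2.65 CPM (4.29-fold, log2 2.10 ± 0.43, adjusted p = 0.00029, counting interval 1.23 to 3.09), and was 0.641, 0.737 and 0.641 CPM with SUZ12 put back (3.0-fold below the knockout). RS held 6.01, 6.94 and 8.12 CPM, against 1.2, 1.08 and 1.19 CPM in R of the SUV2 set (6.05-fold), and 9.44, 9.67 and 9.31 CPM, against 2.31, 2.55 and 1.89 CPM, in the SD2 set (4.19-fold). No RS library overlapped R. The HP1 knockout gave 2.25, 3.13 and 2.87 CPM and wild type 1.12, 0.776 and 1.75 CPM (log2 1.26 ± 0.51, adjusted p = 0.0411), lost without wild-type replicate 1 or 2 or knockout replicate 2 or 3 (log2 1.02 to 1.24, adjusted p = 0.0713 to 0.16). Full-length SUZ12 was called below that knockout only without its own replicate 3 (log2 -1.44, adjusted p = 0.0404). In the degron line Cdx1 held 6.17, 6.17 and 4.69 CPM in DMSO and 40.9, 42.2 and 40.5 CPM at 48 h (7.26-fold, log2 2.86 ± 0.17, adjusted p = 6.18e-09). At 24 h it held 7.26, 6.19 and 10.2 CPM (log2 0.51 ± 0.17, adjusted p = 0.0319), lost without 24 h replicate 3 (log2 0.25, adjusted p = 0.236) or DMSO replicate 3 (log2 0.38, adjusted p = 0.132).

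The fusions and RBBP5 loss moved Cdx1 little. The active SUV2 fusion lay below its dead version in the panel (log2 -0.72 ± 0.25, adjusted p = 0.0399, lost without dead replicate 2 or 3 or active replicate 2 or 3 at adjusted p = 0.0745 to 0.196), and S12N:SUV2 below RS (log2 -0.32 ± 0.11, adjusted p = 0.0164, lost without fusion replicate 1 or 2 or RS replicate 3 at adjusted p = 0.0515 to 0.144). dTAG13 lowered it in R of the SD2 set, to 1.04, 1.3 and 1.6 CPM (1.77-fold, adjusted p = 0.0027), while RS overlapped DMSO (log2 -0.02 ± 0.10). The difference between those lines was called (log2 0.80 ± 0.22, adjusted p = 0.023) and lost without R replicate 1 or 2 in DMSO, R replicate 1 in dTAG13 or RS replicate 2 in dTAG13 (log2 0.63 to 0.78, adjusted p = 0.055 to 0.109). In RS with S12N:SUV2 a fall of log2 -0.38 ± 0.12 (adjusted p = 0.0105) was lost without DMSO replicate 3 (adjusted p = 0.0539).

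**Figure D4:**
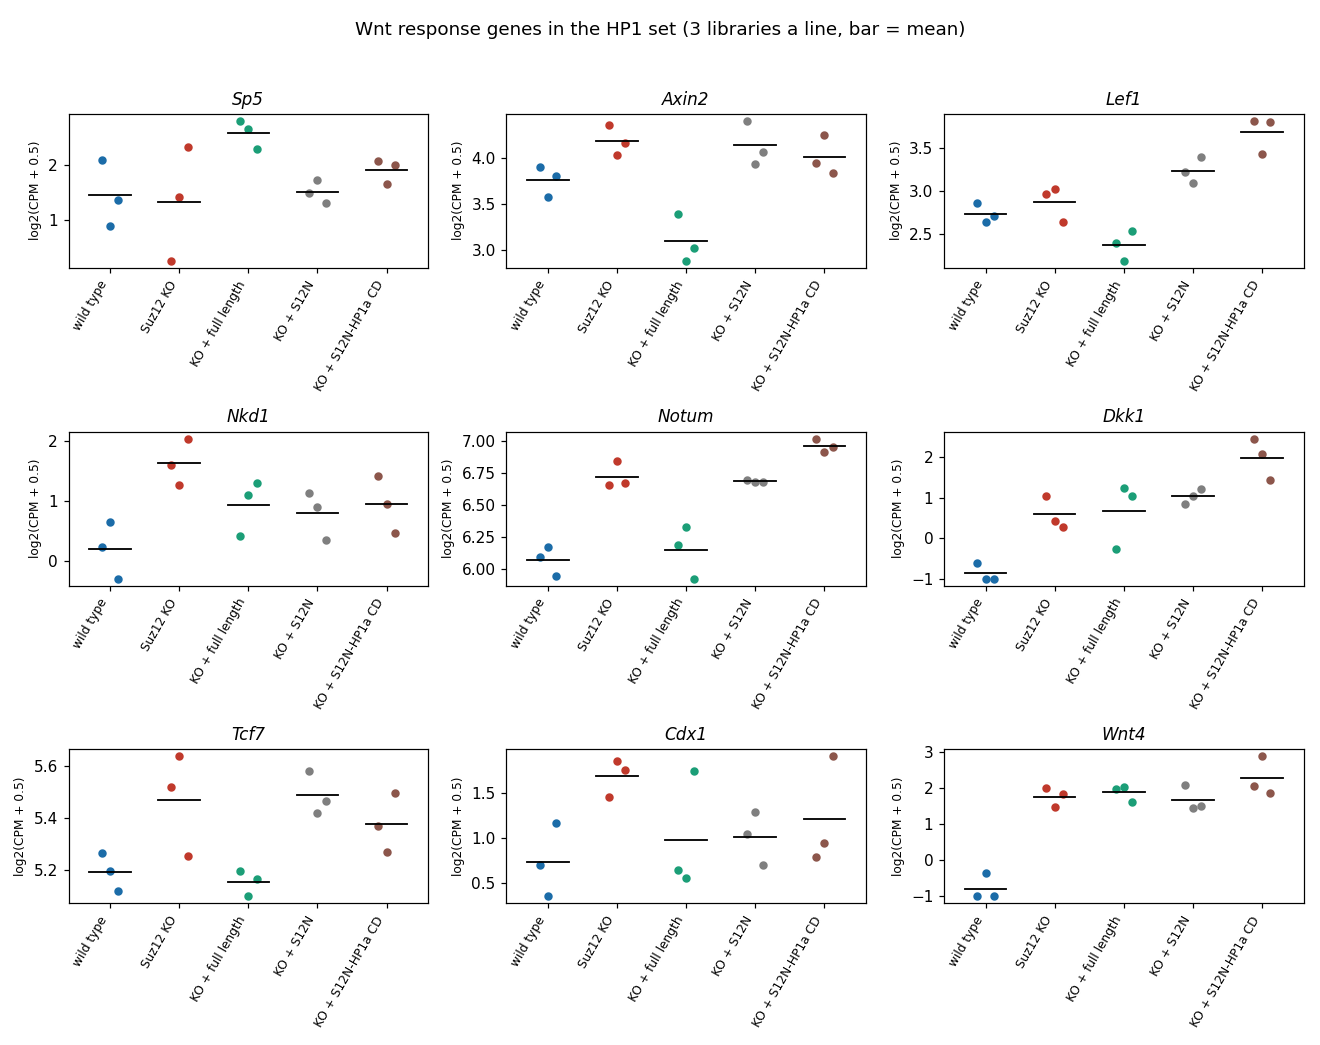
Levels of the 9 genes in the HP1 set, as log2(CPM + 0.5) per library (points) with the group mean (bar), for wild-type cells, knockout cells and 3 lines with an added SUZ12 form (full length, S12N, or the HP1a chromodomain fusion). Wnt4 and Dkk1 stay above wild type with full-length SUZ12, while Notum and Axin2 are below the knockout there.

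The remaining groups filled in the order of levels. In the panel, Axin2 held 9.37 to 11.7 CPM with S12N and 11.2 to 15.7 CPM with the 4 fusions, and Notum 50.1 to 76.2 CPM with S12N and 53.3 to 68.1 CPM with the fusions, all above the wild-type libraries. Lef1 held 11.1 to 22.6 CPM with S12N, 24.8 to 30.7 CPM with S12N:SD2 and 13.6 to 27.4 CPM with its dead version. Dkk1 held 0.607 to 1.12 CPM with S12N, 0.563 to 1.26 CPM with S12N:SD2 and 0.919 to 1.16 CPM with its dead version, and Cdx1 1.81 to 2.43 CPM with S12N. Nkd1 with S12N, at 1.49 to 2.71 CPM, overlapped both wild type and the knockout. Tcf7 lay between 47 and 60.8 CPM in these 5 groups, within or near the range of wild type and knockout. With the HP1a chromodomain fusion, Dkk1 held 5.01, 3.71 and 2.2 CPM against 1.29, 1.55 and 1.84 CPM with S12N, and Lef1 13.6, 10.3 and 13.5 CPM against 8.8, 8.05 and 10.0 CPM. Both pairs were without overlap and not called (Dkk1 log2 1.23, adjusted p = 0.145, and Lef1 log2 0.47 ± 0.19, adjusted p = 0.125). Primitive endoderm markers summed to 1160 to 1850 CPM with the fusion and 878 to 968 CPM with S12N, and their part in these differences was not tested.

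Per kilobase of exon, the 9 genes of panel wild type ranked from Tcf7 (19.7 CPM per kb), Notum (15.8) and Sp5 (5.41), through Axin2 (1.05), Lef1 (0.954), Nkd1 (0.325) and Cdx1 (0.28), to Wnt4 (0.166) and Dkk1 (0.0161). In the knockout Sp5 held 0.483 CPM per kb and Dkk1 0.638 CPM per kb, so their order was exchanged. Over the 31 group means, centred within each data set, Sp5 had a negative correlation with 6 of the other 8 genes (r from -0.47 with Dkk1 to 0.13 with Nkd1), while Cdx1 had r of 0.84 with Axin2, 0.80 with Lef1 and 0.80 with Dkk1. These values describe points that share libraries and controls. Of the genes outside the 9, those most like Axin2 were Prdm2 (0.923), Usp47 (0.912) and Cbx2 (0.901), and Cbx2 was also the first for Notum (0.883). Letmd1 (0.946) came first for Cdx1, Csf1 (0.933) for Wnt4, Ticam2 (0.883) for Tcf7 and Mlf1 (0.857) for Nkd1.

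Other genes of the pathway were counted by lists of each role. In the panel knockout 23.8% of all genes rose and 23.2% fell, in the HP1 knockout 22.2% and 19.6%, and at 48 h of auxin 20.2% and 23.8%. Of 14 secreted inhibitors and agonists tested in the panel knockout, 11 rose and 1 (Sfrp2) fell, with a median log2 fold change of 1.02, and 8 of 10 rose in the HP1 knockout. Among those in the panel were Sfrp5 (4.46-fold), Dkk3 (3.31-fold) and Frzb (1 read in wild type and 38 in the knockout), which bind Wnt ligands or modulate the pathway outside the cell. Directions differed between data sets. Dkk3 rose in the HP1 knockout (2.32-fold) and fell at 48 h of auxin (log2 -0.97 ± 0.17). Sfrp2 rose in the HP1 knockout (3.52-fold) and at 48 h of auxin (6.3-fold). Of 12 ligands and ligand-processing genes, 5 rose and 0 fell in each of these knockouts, among them Wnt5a in the panel (from 3.3 ± 0.832 to 12.3 ± 2.61 CPM, SD) and in the HP1 set (2.26 ± 0.676 to 8.15 ± 0.375 CPM). Receptors were mixed: 9 of 17 rose and 4 fell in the panel, with Lgr6 3.99-fold higher and Fzd7 lower (log2 -0.78 ± 0.08). In the destruction complex and Dishevelled list 0 of 17 rose and 7 fell, and in the list of TCF partners 0 of 14 rose and 8 fell, with medians of -0.16 and -0.38. Ctnnb1, the gene of beta-catenin, fell by log2 -0.22 ± 0.04 in the panel knockout.

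Of 17 other common Wnt targets, 6 rose and 2 fell in the panel knockout, 10 of 16 rose in the HP1 knockout, where 3 fell, and 10 of 15 rose at 48 h of auxin, where 0 fell. The share that rose in the panel was the nearest of these to that of all genes (23.8%). Tbx3, a T-box factor, rose 10.3-fold in the panel knockout and 2.24-fold in the HP1 knockout, and Tnfrsf19, a receptor of the tumour necrosis factor family, rose 4.07-fold in the panel knockout and 1.9-fold at 48 h of auxin. Cdx2, a caudal factor like Cdx1, had 0 reads in the DMSO libraries of the degron line and 288 at 48 h, at least 148-fold higher against a floor of 3 reads. Ccnd1, which encodes cyclin D1, rose 2.0-fold at 48 h of auxin and fell with dTAG13 in R of both RBBP5 sets (log2 -0.42 ± 0.03 and -0.46 ± 0.05). dTAG13 also lowered the co-receptor gene Lrp5 (log2 -0.64 ± 0.04 and -0.76 ± 0.07) and Csnk1e, which encodes a casein kinase of the pathway (log2 -1.36 ± 0.05 and -1.27 ± 0.12), and raised Btrc, which encodes the ubiquitin ligase subunit that recognises beta-catenin (log2 0.55 ± 0.05 and 1.02 ± 0.07). Of 13 secreted inhibitors and agonists, dTAG13 lowered 5 and raised 1 in R of the SUV2 set, where 26.2% of all genes fell and 25.4% rose, and lowered 6 and raised 1 in R of the SD2 set, where 20.2% fell and 21.6% rose. Genes repressed by TCF7L1 in these cells showed no common direction, with 2 of 8 higher and 4 lower in the panel knockout.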

How the data were processed

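RNA from 93 libraries in 31 groups was analysed; 12 further samples, treated with QC6352, were not analysed here. The authors deposited raw counts per gene, as tables by symbol for the panel and the SUV2 RBBP5 set and as 1 table per library by Entrez ID for the others. Per the submitters' processing notes, the first 2 used Trim Galore 0.4.5, STAR 2.4 and HTSeq 0.9.1, the SD2 set Trim Galore 0.6.7, HISAT2 2.2.1 and featureCounts 2.0.8, and the degron and HP1 sets Trimmomatic and HISAT2; their counter, and whether strand was used, are not given in the sources used here. Without strand, reads of overlapping antisense genes cannot be told apart.

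Each data set was fitted alone in edgeR 4.0.16 (R 4.3.3) with TMM scaling, the filterByExpr filter by group and the quasi-likelihood test over all its groups, with Benjamini-Hochberg adjustment per comparison over 14016 to 16227 genes and a threshold of 0.05. Where a group held under 30 reads, an exact 95% interval of the ratio covers counting error only. The method was tested on simulated data. Alternatives were DESeq2 1.42.0, RLE scaling, no filter, a replicate block and leaving out each library; 3 more, with S12N in place of the knockout, 24 h in place of DMSO, and HP1 replicates 1 and 2 alone, were chosen after seeing the data. Biological triplicates are stated for all but the SD2 set, where p-values measure the spread between libraries, which may be technical. No pair of libraries was alike within sampling noise. Correlations of the deviations from group means were over 0.1 in every pair of same-numbered libraries in 1 of 26 comparisons of 2 groups. This was the panel knockout against wild type (0.17, 0.12 and 0.122). Outside these comparisons, S12N with S12N:SD2 of the panel gave 0.21, 0.323 and 0.244. The numbers may pair such libraries, but the labels name no shared culture or day.

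The 9 genes and the pathway and marker lists were chosen with earlier results of these data known. Named genes of a list were up to 3 with the smallest p among those called in a comparison, and the genes named as alike the 3 with the highest Pearson correlation of log2(CPM + 0.5) group means. Gene positions are from GENCODE on GRCm38, promoter windows from RefSeq.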

Additional observations from a re-analysis of the deposited data

Results flagged for a closer look

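The effect of dTAG13 differed between lines, by a test of the difference itself, for 5 genes. In RS with S12N:SUV2 against RS the log2 differences were -0.77 for Sp5 and -0.33 for Lef1, where 10.7% of all genes were called. In RS against R of the SD2 set they were -0.95 for Nkd1, -2.22 for Dkk1 and 0.80 for Cdx1, where 12.1% were. Dkk1 rose with dTAG13 from 6 reads in R over 3 libraries, so that value rests on few counts. DESeq2 lost Sp5 and Lef1. Of 12 fits that left out 1 library, Sp5 was lost in 4, Lef1 in 3 and Cdx1 in 4. RS against R of the SUV2 set, and RS with S12N:SD2 against RS, gave 0 calls, against 19.6% and 2.06% of all genes.

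For 3 genes the libraries after SUZ12 loss lay wholly above the controls in one data set and wholly below in another, and the difference between data sets was not tested. Sp5 fell in the panel knockout (log2 -3.50) and in RS of both RBBP5 sets (-1.62 and -3.06), and rose after 48 h of auxin (4.13). Notum differed by log2 0.70 in the panel, 0.36 in the SUV2 set, 1.03 at 48 h of auxin, 0.66 in the HP1 set and -0.11, not called, in RS of the SD2 set. Tcf7 was lower in RS of the SUV2 set (log2 -0.18) and differed by 0.41, not called, at 48 h of auxin.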

How the results depend on the processing

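Of 115 calls on the 9 genes, 88 were kept under every alternative run, 27 were lost under at least 1 and 0 changed direction; RLE scaling kept all 115, and DESeq2 kept 108. The 7 calls DESeq2 lost were Cdx1 with S12N:SUV2 against RS (adjusted p = 0.104), Nkd1 with dTAG13 in R of the SUV2 set (0.082), Cdx1 with dTAG13 in RS with S12N:SUV2 (0.0704), Axin2 and Cdx1 in the HP1 knockout (0.0621 and 0.0511), and Sp5 and Lef1 in the difference below (0.0674 and 0.0682). No filter lost Nkd1 with SUZ12 put back (0.0513) and Lef1 with full-length SUZ12 in the HP1 set (0.0614). With the replicate block, S12N against the knockout of the panel gave 1 call (Wnt4), active against dead SD2 gave 1 (Lef1, also 1 with no filter) and auxin at 8 h gave 0 (Sp5 adjusted p = 0.0992). In the panel knockout against wild type, the 1 comparison where every same-numbered pair correlated above 0.1, the block kept the 8 calls. In the other 25 the lowest correlation of a same-numbered pair was at or below 0.031, though 14 of 84 pairs over all panel groups were above 0.1. DESeq2 gave 0 calls for the dTAG13 difference between RS with S12N:SUV2 and RS and 1 for that between RS with S12N:SD2 and RS (Lef1). The block changed no other count of calls by over 1.5 times. No cause of these changes was tested.

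Leaving out 1 library at a time, calls ran from 7 to 8 for the panel knockout and for SUZ12 put back against it, 1 to 2 for SUZ12 put back against wild type, 3 to 5 for active against dead SUV2 and 0 to 1 for active against dead SD2. They ran from 4 to 6, 4 to 5 and 3 to 4 for dTAG13 in R, RS and RS with S12N:SUV2, 0 to 2 for the difference between the latter pair, 2 to 3 for that between RS and R of the SD2 set, 0 to 1 for auxin at 8 h, 2 to 4 at 24 h and 7 to 7 at 48 h. In the HP1 set they ran from 5 to 6 for the knockout, 2 to 6 for full-length SUZ12 against it, 3 to 4 against wild type and 0 to 1 for the HP1a fusion. Depth limits Dkk1, Wnt4 and Lef1, whose control groups held as few as 0 to 7 reads.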
